A study of Macaca mulatta with 51 samples.

Results

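Adipose progenitors are the stromal cells of fat from which new adipocytes form, and they are usually recognised by proteins that they carry on their surface or secrete around them. The genes of 9 such markers, PDGFRA, PDGFRB, CD34, DLK1, DPP4, PI16, THY1, MFAP5 and CD55, were taken from the count table by gene symbol. Each was present once among 16033 genes, and all 9 passed the filter on low counts in both tissues. Punch biopsies of subcutaneous adipose tissue (AT) and gastrocnemius skeletal muscle (SM) came from obese, non-diabetic rhesus macaques aged 11 to 22 years whose obesity came from 2 or more years of high-fat feeding (diet-induced obesity, DIO). Treatment was native human FGF21, injected under the skin each day in steps of rising dose, and each tissue was sampled ahead of the first dose (pre-treatment), at the end of 12 weeks of dosing (post-treatment) and again following 16 weeks without FGF21 (washout). AT gave 10, 9 and 8 libraries at the 3 time points from 10 animals, and SM gave 6, 8 and 7 libraries from 8 animals. The time points were repeat biopsies of the same DIO animals, with no untreated animals sampled in parallel. The authors reported that body weight fell over the treatment and was regained in the washout. FGF21, this weight change and the passing of time cannot be told apart.

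PDGFRA and PDGFRB are tyrosine kinase receptors for the platelet-derived growth factors. PDGFRA is the customary marker of fibroblastic progenitors in fat and of fibro-adipogenic progenitors in muscle, while PDGFRB is shared with the mural cells of vessels and CD34, a sialomucin, with endothelium. DLK1 (preadipocyte factor 1) is a membrane protein whose shed ectodomain inhibits adipocyte differentiation. DPP4, a membrane peptidase, PI16, a peptidase inhibitor homologue, and CD55, an inhibitor of complement, mark early, less committed progenitors of the fat interstitium. THY1 is a glycosylphosphatidylinositol-linked glycoprotein of many stromal cells, and MFAP5 is a secreted component of elastic microfibrils rather than a surface protein. None of the 9 is limited to progenitors, and in biopsies of mixed cells fewer cells that express a gene and less of its RNA per cell cannot be told apart.

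Total counts per library ranged from 15756491 to 23940980 in AT and from 14455195 to 21740711 in SM, and no 2 libraries were identical. AT held the adipocyte gene ADIPOQ at a median of 2865 CPM (counts scaled to the effective size of the library) pre-treatment, while the satellite cell gene MYF5 had no count in any AT library. In SM the summed level of 7 muscle fibre genes was at least 35835 CPM in each library, against at most 158 CPM in AT. Library identifiers fell into 3 number series, whose meaning the sources used here do not give, and the washout AT library of animal 26292 was the only AT library of the first series.

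In AT 4 of the 9 markers were called in at least 1 comparison of time points. The share of all genes called in any comparison was not computed, and the share for each comparison follows. PDGFRA fell at washout, and DPP4 rose post-treatment and fell back at washout. DLK1 and CD55 were lower at washout compared to post-treatment, calls that were lost under 8 of 20 and 8 of 21 alternatives. PDGFRB, CD34, PI16, THY1 and MFAP5 did not pass the test in any AT comparison. Called means a Benjamini-Hochberg adjusted p under 0.05 in edgeR's quasi-likelihood test over all genes of the tissue, with animal in the model, and a log2 difference beyond 0.26 in either direction. Post-treatment compared to pre-treatment, 1 of 9 markers was called, against 15.5% of 13367 genes. At an unadjusted p under 0.05 there were 4 of 9 markers, beside 4581 of the 13367 genes. From post-treatment to washout 4 of 9 were called, against 35.4% of all genes, and all 4 were lower, a direction taken by 17.8% of all genes. That count was 2 with voomWithQualityWeights of limma, without the animal in the model, with the identifier series added, and without animal 20275 or 21866, and 5 without the washout library of animal 26292. Washout compared to pre-treatment, 1 of 9 was called, against 20.5%. The median log2 difference of the 9 markers was 0.19 post-treatment against 0.03 over all genes, -0.51 from post-treatment to washout against -0.0021, and -0.12 from pre-treatment to washout against -0.02.

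**Figure D1:**
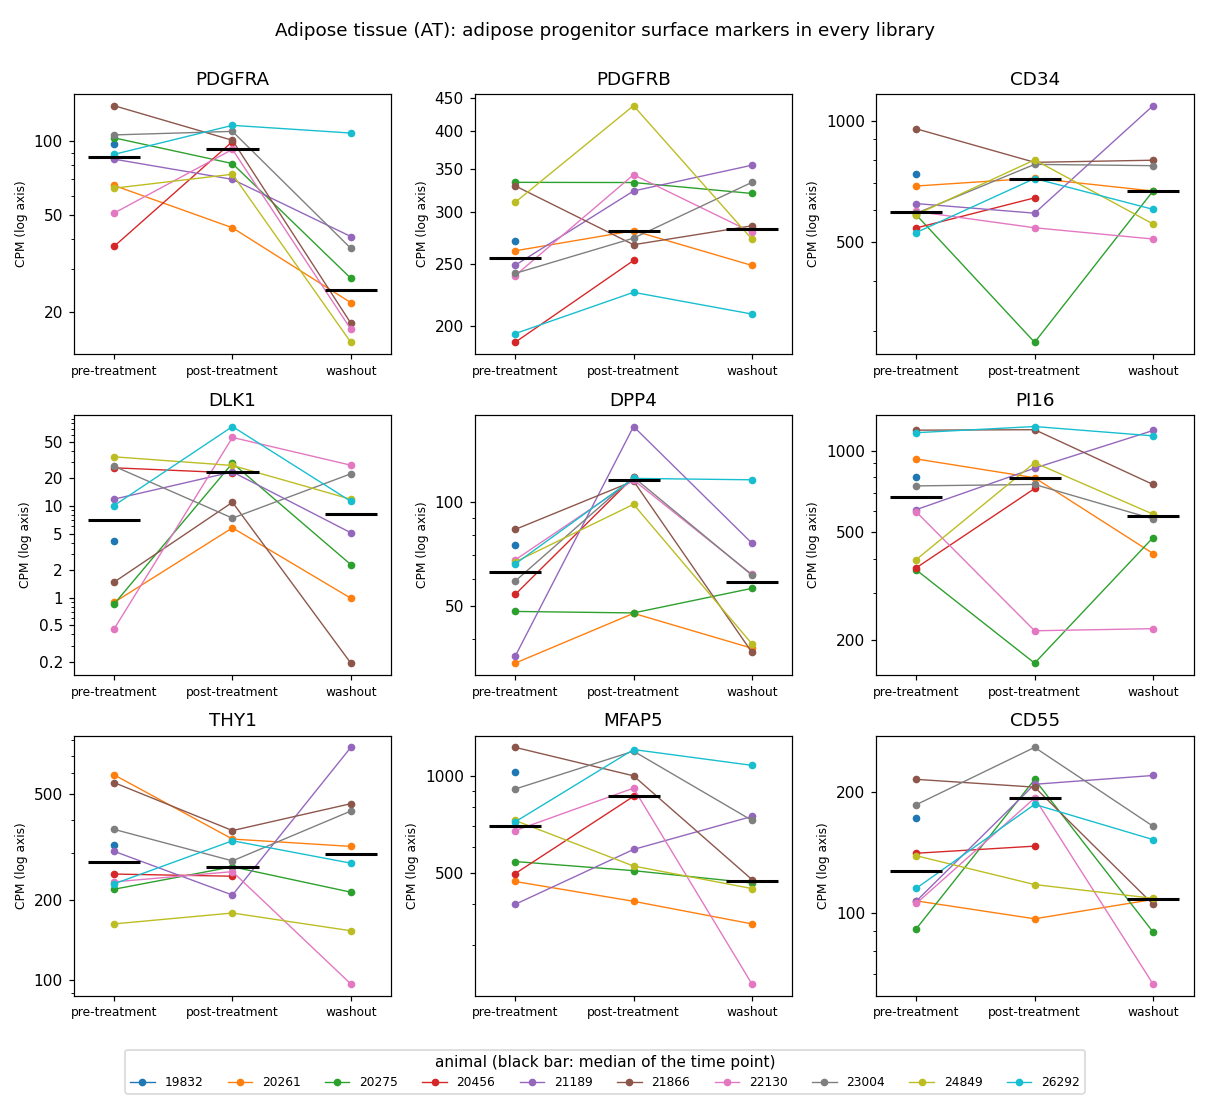
Levels of the 9 markers in AT, in CPM on a log axis, at the 3 time points; each coloured line joins the libraries of 1 animal and black bars are medians. In the PDGFRA panel 7 of 8 washout libraries lie below every post-treatment library, and the washout library of animal 26292 does not.

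Among the receptors, PDGFRA ranged from 37.2 to 139.9 CPM pre-treatment with a median of 86.6. It ranged from 44.4 to 116 CPM post-treatment with a median of 92.7, and from 15.1 to 108 CPM at washout with a median of 24.7. The first 2 time points overlapped throughout, while 7 of 8 washout libraries were below the lowest post-treatment library and 6 of 8 below the lowest pre-treatment library. These 7 washout libraries held 15.1, 17.1, 18.1, 21.9, 27.6, 36.6 and 40.8 CPM, and the eighth, of animal 26292, held 108 CPM. The fitted log2 difference was -1.55 ± 0.28 (SE) from post-treatment to washout, a level 2.93-fold lower (adjusted p = 0.000453), with PDGFRA lower in 8 of 8 animals. From pre-treatment to washout it was -1.43 ± 0.28 (adjusted p = 0.000966), lower in 7 of 8 animals, and from pre-treatment to post-treatment 0.12 ± 0.26 (adjusted p = 0.785). Within animals the log2 change from post-treatment to washout ran from -2.48 in animal 21866 to -0.10 in animal 26292. Without the washout library of animal 26292 the difference from post-treatment was -1.84 (adjusted p = 2.66e-05), and over all 21 alternatives the adjusted p lay between 6.76e-08 and 0.00343. Within the last identifier series the median was 81.2 CPM in 7 post-treatment and 29.2 CPM in 4 washout libraries, and within the middle series 104.8 CPM in 2 and 17.1 CPM in 3.

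PDGFRB moved far less in the same libraries. It ranged from 189 to 334 CPM pre-treatment (median 255), from 226 to 438 CPM post-treatment (median 281) and from 209 to 355 CPM at washout (median 283). The groups overlapped across most of their ranges. PDGFRB was higher post-treatment in 7 of 9 animals, with a log2 difference of 0.22 ± 0.10 that did not pass the test (adjusted p = 0.111), and its difference at washout was -0.11 ± 0.10 from post-treatment (adjusted p = 0.399) and 0.11 ± 0.10 from pre-treatment (adjusted p = 0.469). Its standard errors were the smallest of the 9 markers in AT.

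The ratio of PDGFRA to PDGFRB counts, which needs no scaling between libraries, shows the 2 receptors against each other. In AT its median was 0.325 pre-treatment, 0.270 post-treatment and 0.0871 at washout. Its lowest value was 0.197 pre-treatment and 0.158 post-treatment, and 7 of 8 washout libraries lay below both. The washout library of animal 26292 had a ratio of 0.518, the highest in AT. In SM the medians were 0.149, 0.102 and 0.247, so that the washout ratio was the highest of the 3 there and the lowest in AT. The ratio itself was not tested, and since gene lengths were not used here it does not say which receptor had more transcripts.

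**Figure D2:**
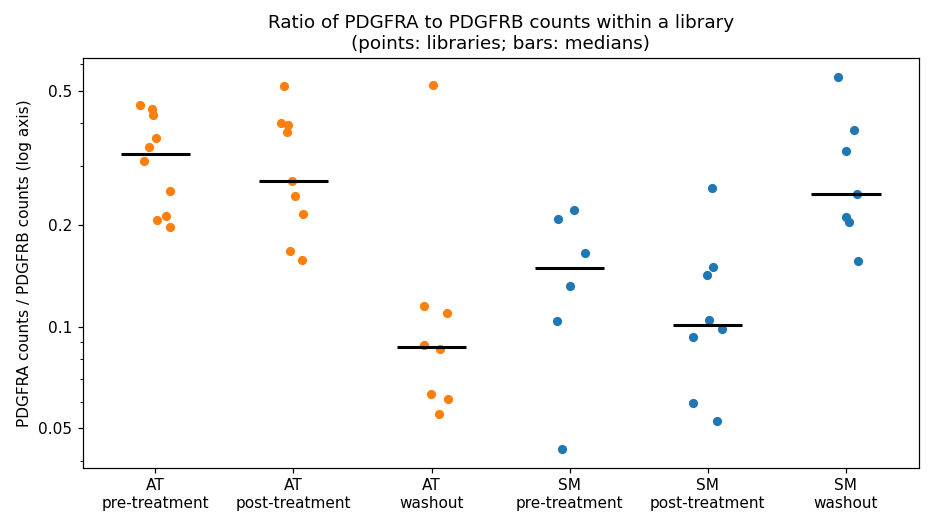
Ratio of PDGFRA to PDGFRB counts in each library, on a log axis, by tissue and time point; points are libraries and bars are medians. The AT washout points sit around 0.0871 with 1 library at 0.518, and the SM washout points around 0.247.

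CD34 varied little between the time points in AT. It ranged from 527 to 954 CPM pre-treatment (median 592), from 282 to 799 CPM post-treatment (median 718) and from 508 to 1089 CPM at washout (median 669). Its log2 differences were 0.03 ± 0.15 post-treatment (adjusted p = 0.91), 0.11 ± 0.16 from post-treatment to washout (adjusted p = 0.603) and 0.15 ± 0.16 from pre-treatment to washout (adjusted p = 0.549). The lowest value came from the post-treatment library of animal 20275, which stood apart from the other 8.

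DLK1, the inhibitor of adipogenesis, had the widest spread of the 9 and the fewest counts. Pre-treatment it ranged from 0.457 CPM (8 counts) in animal 22130 to 34.5 CPM (624 counts) in animal 24849, with a median of 7.14 CPM. Post-treatment it ranged from 5.80 to 73.7 CPM with a median of 23.6, and at washout from 0.194 CPM (4 counts) to 27.9 CPM with a median of 8.20. All post-treatment libraries were above the 5 lowest pre-treatment ones, and 4 of 8 washout libraries were below the lowest post-treatment library. DLK1 fell by 2.01 ± 0.67 on the log2 scale from post-treatment to washout (adjusted p = 0.0255) and was lower in 7 of 8 animals. The difference of 1.73 ± 0.67 post-treatment did not pass the test (adjusted p = 0.0785), although it was the largest of the 9 and 6 of 9 animals were higher. Changes within animals at that step ran from -1.87 in animal 23004 to 6.65 in animal 22130. From pre-treatment to washout the difference was -0.28 ± 0.69 (adjusted p = 0.811). These calls depended on the test: with DESeq2 the post-treatment difference was 1.91 (adjusted p = 0.019), and with voomWithQualityWeights the washout difference was -0.93 (adjusted p = 0.452). Over 20 alternatives the adjusted p ranged from 0.019 to 0.449 post-treatment and from 0.00396 to 0.452 at washout. The post-treatment difference was called without animal 23004 (adjusted p = 0.0421), and the washout call was lost without animal 20261, 20275, 21189, 21866 or 26292 in turn (adjusted p from 0.0537 to 0.0662).

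DPP4, the peptidase of early progenitors, was the marker called post-treatment. It ranged from 34.2 to 83.2 CPM pre-treatment with a median of 62.6, from 47.6 to 165 CPM post-treatment with a median of 116, and from 36.7 to 116 CPM at washout with a median of 58.8. Of the 9 post-treatment libraries, 7 were above the highest pre-treatment library, and those of animals 20261 and 20275 were at 47.6 and 47.7 CPM. DPP4 rose 1.75-fold post-treatment, a log2 difference of 0.81 ± 0.20 (adjusted p = 0.015). The rise was seen in 8 of 9 animals, with a change of -0.01 in animal 20275. It fell by 0.76 ± 0.21 from post-treatment to washout (adjusted p = 0.00876) in 7 of 8 animals. At washout it differed from pre-treatment by 0.05 ± 0.21 (adjusted p = 0.899). Both calls were made under each of the 21 alternatives run.

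PI16 and THY1 passed no test in AT. PI16 ranged from 364 to 1191 CPM pre-treatment, from 165 to 1228 CPM post-treatment and from 221 to 1188 CPM at washout, with medians of 674, 795 and 572 CPM. Its log2 differences were -0.01 ± 0.26, -0.16 ± 0.27 and -0.17 ± 0.27 for post-treatment against pre-treatment, washout against post-treatment and washout against pre-treatment (adjusted p = 0.988, 0.67 and 0.694). THY1 had medians of 278, 267 and 297 CPM and log2 differences of -0.12 ± 0.22, 0.08 ± 0.24 and -0.04 ± 0.24 (adjusted p = 0.748, 0.809 and 0.932). Animals differed more than time points in both genes. The THY1 washout libraries spread 7.75-fold, from 96.9 CPM in animal 22130 to 751 CPM in animal 21189.

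CD55, the complement inhibitor, fell from post-treatment to washout, and MFAP5, the microfibril component, did not pass the test. CD55 ranged from 91.1 to 216 CPM pre-treatment (median 127), from 96.5 to 259 CPM post-treatment (median 193) and from 66.2 to 220.4 CPM at washout (median 108). It fell by 0.54 ± 0.19 from post-treatment to washout (adjusted p = 0.0346) in 6 of 8 animals, while the difference of 0.43 ± 0.19 post-treatment did not pass (adjusted p = 0.111). From pre-treatment to washout CD55 differed by -0.12 ± 0.20 and was not called (adjusted p = 0.713). MFAP5 had medians of 698, 864 and 471 CPM and differed by -0.51 ± 0.22 from post-treatment to washout (adjusted p = 0.0815), lower in 7 of 8 animals. Its differences from pre-treatment were 0.19 ± 0.21 post-treatment (adjusted p = 0.557) and -0.32 ± 0.22 at washout (adjusted p = 0.328). The CD55 call was lost under 8 of 21 alternatives, among them the omission of animal 20275, 21866, 22130 or 23004 in turn (adjusted p from 0.0148 to 0.12 over all 21). MFAP5 was called without animal 21189 (-0.67, adjusted p = 0.0275) or without the washout library of animal 26292 (-0.62, adjusted p = 0.044), with adjusted p up to 0.232 elsewhere.

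**Figure D3:**
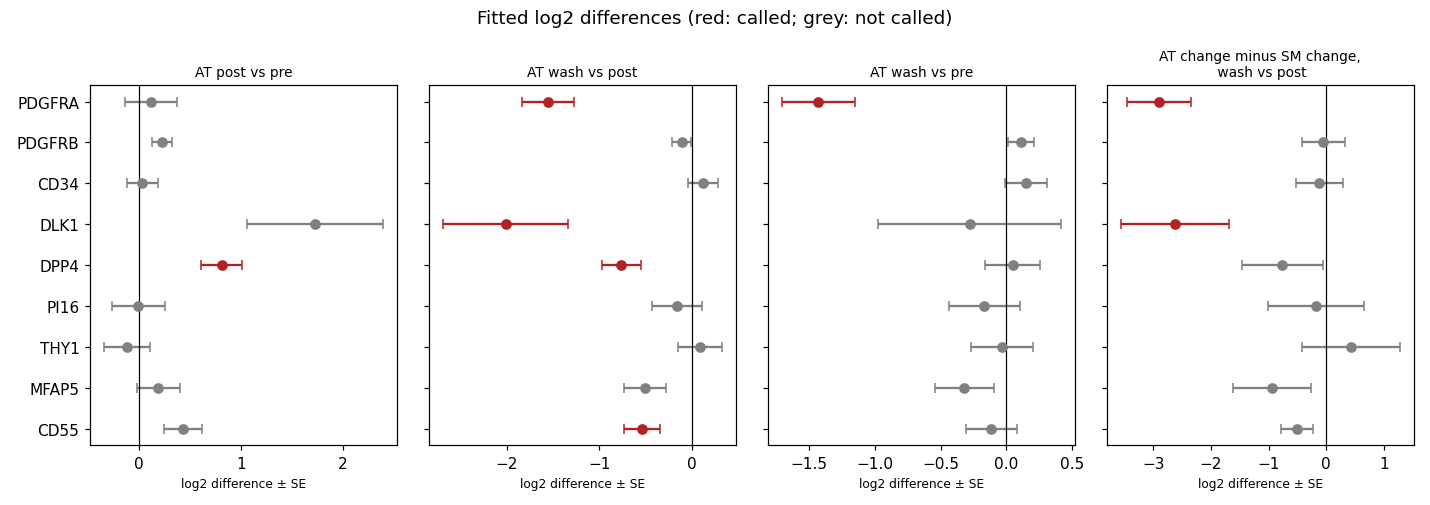
Fitted log2 differences of the 9 markers with their SE in 4 comparisons; red points are called and grey points are not. PDGFRA lies at -1.55 and -1.43 in the comparisons of washout with post-treatment and pre-treatment, DPP4 at 0.81 and then -0.76, and the last panel gives the AT change minus the SM change, with PDGFRA at -2.91.

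Markers of other cells moved in the same AT libraries. All 7 macrophage genes of a list for that cell type were lower at washout than post-treatment (median log2 difference -1.73), and their summed level ranged from 518 to 2031 CPM pre-treatment, from 766 to 4503 CPM post-treatment and from 334 to 1989 CPM at washout. Against pre-treatment 4 of the 7 macrophage genes were lower at washout (median of all 7 -0.92) and 2 of 6 endothelial genes were higher. Of 3 adipocyte genes 2 fell post-treatment, LEP by 1.93 and PLIN1 by 0.62, LEP rose by 1.87 at washout, and the sum ranged from 6063 to 11660 CPM, then from 2251 to 9199.8 CPM, then from 3754 to 11187 CPM. Of 5 mural cell genes 3 rose at washout compared to post-treatment (ACTA2, RGS5 and KCNJ8), and of 6 endothelial genes 2 rose (CDH5 and TIE1), with sums of 271 to 2249 CPM and of 760.5 to 2260.0 CPM at washout against 119 to 633 CPM and 670.3 to 1609 CPM post-treatment. Of 2 erythroid genes tested, both rose (HBB by 1.59, ALAS2 by 1.80), and of 4 T cell genes CD8A rose by 0.51 post-treatment and fell by 0.69 at washout. No mesothelial, keratinocyte, Schwann cell or muscle fibre gene was called in AT, where 3 mesothelial and 2 keratinocyte genes were tested. The mesothelial sum reached 77.1 CPM pre-treatment in animal 23004 (group median 0.812 CPM). The keratinocyte sum reached 74.6 CPM post-treatment in animal 23004 and 71.2 CPM at washout in animal 21866 (group medians 0.914 and 2.74 CPM). The part of these cell types in the marker differences was not tested.

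Genes that act with the markers were counted from lists of partners and of progenitor and matrix genes, 59 genes in all, of which 57 were tested in AT. Post-treatment 12 of 57 were called (5 up, 7 down), at washout compared to post-treatment 23 (3 up, 20 down), and at washout compared to pre-treatment 10 (2 up, 8 down). Their median log2 differences were 0.16, -0.33 and -0.21, beside 0.03, -0.0021 and -0.02 over all genes. The called shares were 21.1%, 40.4% and 17.5%, beside 15.5%, 35.4% and 20.5% of all genes. Among 5 PDGF ligands and signal partners, PTPN11 and GRB2, which relay the receptors' signal, fell by 0.88 and 0.52 from post-treatment to washout, and the ligand PDGFD by 0.42. The ligand genes PDGFB and PDGFC gave -0.08 and -0.06 and were not called. None of the 5 was called post-treatment. PTPN11 was also lower at washout than pre-treatment (-1.46 ± 0.22, adjusted p = 7.08e-05), and so was GRB2 (-0.40). The smallest of these PTPN11 changes within animals, -0.46, was in animal 26292. Post-treatment PTPN11 was at -0.58 ± 0.20, lower in 7 of 9 animals (adjusted p = 0.0545), where PDGFRA was at 0.12.

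Among 3 genes tested with DLK1, the receptor gene NOTCH1 rose by 0.85 and SOX9 by 0.46 from post-treatment to washout. DIO3, a deiodinase gene of the same imprinted region, fell by 2.07 from a mean of 0.640 CPM. Among 4 genes of DPP4's binding partner and family, PREP and CAV1 fell post-treatment (-0.36 and -0.43) while DPP4 rose, and DPP8 fell at washout (-0.88). DPP8 and PREP were also lower at washout than pre-treatment (-0.87 and -0.38). Among 5 relatives and targets of PI16, CTSK, the cysteine protease cathepsin K, rose by 1.01 post-treatment and fell by 1.36 at washout, and GLIPR1 fell by 1.34 at washout, while PI16 passed no test. RARRES2, the gene of the adipokine chemerin, was higher at washout than pre-treatment by 0.43. Of 5 integrin genes for THY1 binding 4 fell from post-treatment to washout, with the leukocyte integrins ITGB2 and ITGAM lowest (-1.98 and -1.79) and ITGB3 at -0.88. Compared to pre-treatment, ITGAV, ITGB3 and ITGB5 were lower at washout (-0.67, -0.58 and -0.50).

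Of 6 microfibril genes, MFAP2 rose by 0.82 post-treatment in 9 of 9 animals and fell by 1.21 at washout in 8 of 8. FBN1, the gene of fibrillin-1, fell by 0.61 at washout, and FBN2 was called post-treatment (1.81) at a mean of 0.469 CPM with 4 of 9 animals higher. Of 3 genes listed with CD55, the complement regulator CD59 fell by 0.30 at washout. Among 7 other early progenitor genes SEMA3C fell by 0.75 post-treatment in 9 of 9 animals and none was called at washout. Among 7 genes of committed preadipocytes PPARG, the master regulator of adipogenesis, fell by 0.70 post-treatment and rose by 0.49 at washout, and CXCL14 and ZNF423 fell by 0.43 and 0.36 post-treatment. Of 10 matrix genes of fibroblasts, COL1A1 and COL1A2 rose post-treatment (1.02 and 0.81) and SPARC fell by 0.54. At washout 5 of the 10 fell compared to post-treatment, with COL6A3 at -1.79 ± 0.21 (adjusted p = 1.07e-05), POSTN at -1.46 and COL1A1 at -1.09, and COL6A3 alone of the 10 was called against pre-treatment (-1.27). The post-treatment count of 12 fell to 3 without animal 22130, to 4 without animal 20275, to 5 without animal 26292 and to 7 without animal 20261. The number of all genes called in that comparison also varied, from 805 to 2607 over all settings run, beside 2068 in the main fit.

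Across the 27 AT libraries the 9 markers did not form 1 group. Over their 36 pairs Pearson's r of log2 CPM had a median of 0.25 and ranged from -0.37 to 0.78. The closest pairs were MFAP5 with CD55 (r = 0.78), PDGFRA with MFAP5 (r = 0.74) and CD34 with PI16 (r = 0.70), and PDGFRB stayed between -0.20 and 0.20 with each of the other 8. With time point and animal means removed, the median over pairs was 0.36, and PDGFRB gave 0.53 with CD34, 0.48 with THY1, 0.47 with PDGFRA and 0.39 with DPP4. These libraries share animals, time points and 1 scaling, so the values describe this set of libraries. By the same measure over the 12141 genes that averaged 1 CPM or more in AT, the genes most like PDGFRA in AT were FEM1B (r = 0.92), TBC1D5 (r = 0.91) and PSD3 (r = 0.89). Those most like MFAP5 were FBN1 (r = 0.93), GPR1 (r = 0.92) and FSTL1 (r = 0.89), and those most like CD55 were KCNK1, PPIC and NHSL1 (r = 0.89, 0.89 and 0.88). DPP4 was closest to PAMR1, CA12 and ITGA11 (r = 0.83, 0.83 and 0.81), THY1 to TIMP1, EYA2 and MMP23B (r = 0.83, 0.81 and 0.80) and DLK1 to TMEM251, CEACAM3 and PAQR8 (r = 0.84, 0.83 and 0.80). PI16 was closest to OMD, ANGPTL5 and GLP2R (r = 0.81, 0.79 and 0.78), CD34 to SOX13, OLFML2A and FGFR1 (r = 0.80, 0.77 and 0.76), and PDGFRB to MEF2D, KDM6B and NPHP4 (r = 0.71, 0.67 and 0.66). By Spearman's rho 15 of these 27 genes were still among the 3 most like their marker, and after removal of time point and animal means 2 were.

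In SM no marker passed the test between time points, and levels spread widely among the libraries of a time point. None of the 9 was called post-treatment compared to pre-treatment, where 0% of 12617 genes were called by edgeR (410 genes had an unadjusted p under 0.05, 0 of them markers), and DESeq2 and voomWithQualityWeights also called none. At washout none was called against post-treatment, where 0.19% of genes were called, or against pre-treatment, where 0.0634% were. DESeq2 and voomWithQualityWeights called no marker at washout either. Of the 12617 genes DESeq2 called 359 against post-treatment and 179 against pre-treatment, and voomWithQualityWeights called 9 and 11. PDGFRA was the 1 marker with an unadjusted p under 0.05 in edgeR's test, against post-treatment, where 2181 of 12617 genes had one. The standard errors at washout against post-treatment ran from 0.20 for CD55 to 0.91 for THY1, and the median log2 difference of the 9 markers was -0.02, against -0.03 over all genes. PDGFRA ranged from 1.16 to 18.9 CPM pre-treatment (median 5.28), from 1.35 to 16.7 CPM post-treatment (median 5.24) and from 3.85 to 38.7 CPM at washout (median 8.34). Its log2 difference was 1.32 ± 0.50 from post-treatment to washout (adjusted p = 0.209, unadjusted p = 0.0193), higher in 5 of 7 animals, and 1.09 ± 0.53 from pre-treatment to washout (adjusted p = 0.395). Post-treatment the 9 log2 differences ran from -0.23 for PDGFRA to 0.55 for DLK1.

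The spread of the other 8 markers in SM differed from gene to gene. PDGFRB had medians of 35.8, 47.5 and 25.2 CPM and ranged from 14.4 to 117 CPM over the 21 libraries. CD34 had medians of 75.5, 86.8 and 68.5 CPM and ranged from 40.5 to 231 CPM. DLK1 was low throughout, with medians of 2.12, 2.31 and 3.70 CPM and a range from 0.226 CPM (3 counts) to 16.9 CPM. Its log2 difference was 0.42 ± 0.46 from post-treatment to washout (adjusted p = 0.671), against the fall of 2.01 in AT. DPP4, called in AT, had medians of 15.6, 27.6 and 9.23 CPM in SM, with log2 differences of -0.01 ± 0.69 post-treatment and -0.03 ± 0.76 from post-treatment to washout (adjusted p = 0.9996 and 0.991). PI16 had medians of 25.9, 22.7 and 15.2 CPM and THY1 of 24.4, 27.1 and 15.5 CPM, with a 331-fold and a 68.8-fold spread among the 8 post-treatment libraries. MFAP5 had medians of 86.8, 106 and 61.9 CPM and ranged from 16.7 to 432 CPM. CD55 was the steadiest of the 9 in SM, from 51.3 to 181 CPM, with medians of 133, 104 and 116 CPM.

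**Figure D4:**
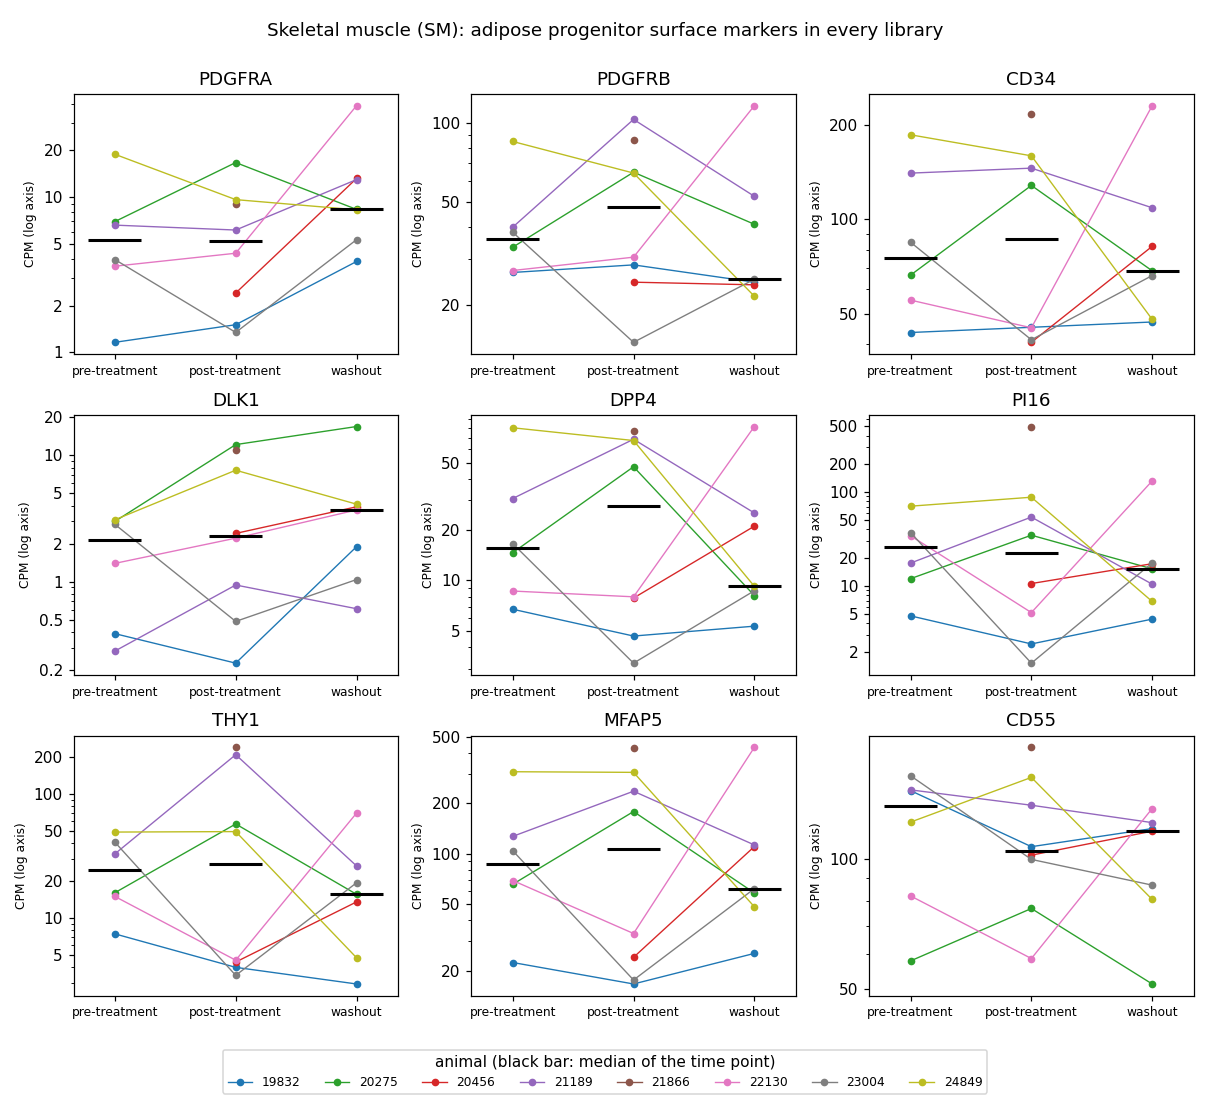
Levels of the 9 markers in SM, in CPM on a log axis, drawn as for AT. The washout library of animal 22130 is the highest of its group in 8 of the 9 panels, and the post-treatment libraries of animals 19832, 20456 and 23004 sit low in most.

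The 9 markers moved together across the 21 SM libraries. The median r over the 36 pairs was 0.74, and 23 pairs exceeded 0.5, against 9 in AT. CD34 with MFAP5 and DPP4 with MFAP5 reached r = 0.97, while CD55 with PDGFRA and with DLK1 gave 0.03 and -0.23. With time point and animal means removed, the last 2 pairs gave 0.75 and 0.56, and the median over the 36 pairs was 0.86. The washout library of animal 22130 was among the 5 highest of 21 for 7 markers and the post-treatment libraries of animals 21866, 24849 and 21189 for 8, 7 and 6. The post-treatment libraries of animals 23004, 19832 and 20456 were among the 5 lowest for 8, 7 and 6. Pre-treatment libraries also stood at the ends, that of animal 24849 among the 5 highest for 6 and that of animal 19832 among the 5 lowest for 6. PI16 showed the extremes, from 1.51 CPM in animal 23004 to 499 CPM in animal 21866, both post-treatment. The washout library of animal 22130 also had the highest macrophage, endothelial and mural cell sums of its group (265, 315 and 347 CPM) and the lowest muscle fibre sum (76050 CPM), and the post-treatment library of animal 21189 had the lowest fibre sum in SM. The adipocyte sum was highest in animal 24849 pre-treatment and post-treatment (283 and 348 CPM, beside group medians of 19.0 and 25.4 CPM). At washout it was highest in animal 20456 (94.8 CPM), and its lowest post-treatment value, 3.83 CPM, was in animal 21866. Of the post-treatment SM libraries, the 3 of the last identifier series were above the 5 of the first series for 5 of 9 markers (CD34, DPP4, PI16, MFAP5 and CD55). Pre-treatment, the 2 of the last series were below the 3 of the first for PI16 and MFAP5. The part of cell makeup and of the series in this spread was not tested.

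**Figure D5:**
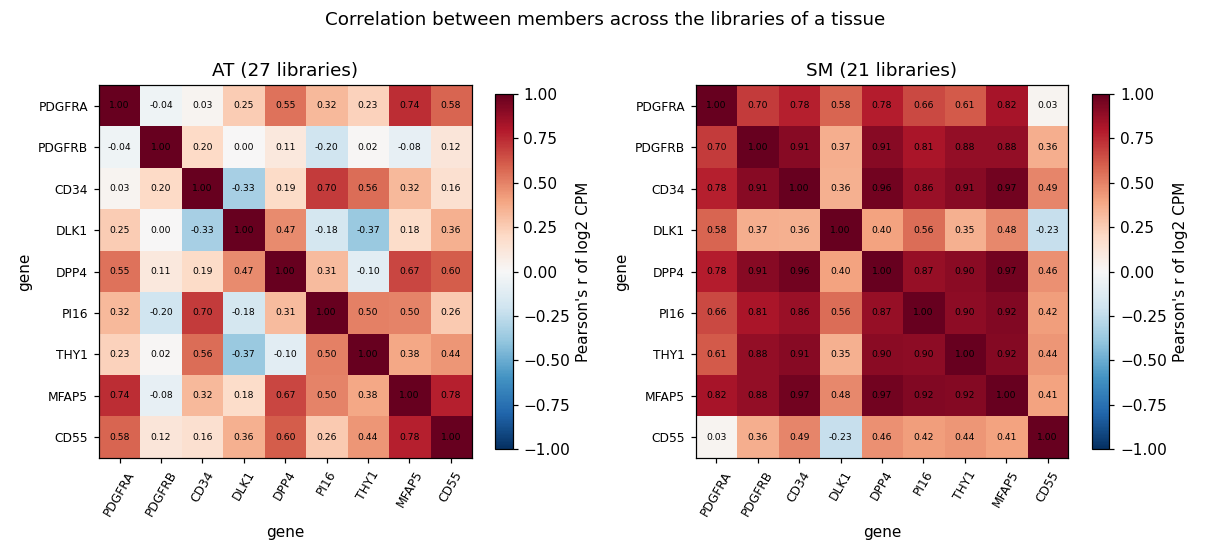
Pearson's r of log2 CPM between each pair of the 9 markers across the 27 AT libraries (left) and the 21 SM libraries (right), on a colour scale from -1 to 1. The median pair is at 0.25 in AT and 0.74 in SM, where CD55 and DLK1 have the lowest values before removal of time point and animal means.

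Compared between tissues pre-treatment, 8 of 9 markers were called, where 77.1% of 13662 genes were, and 7 were higher in AT, where 41.8% of genes were. PI16 was 14.3-fold higher in AT (log2 difference 3.84 ± 0.80, adjusted p = 5.57e-05) and PDGFRA 7.97-fold (2.995 ± 0.52, adjusted p = 3.93e-06). THY1 (2.76), DLK1 (2.13), MFAP5 (2.10), CD34 (2.01) and PDGFRB (1.998) followed. DLK1 was higher in AT in 4 of 6 animals, with log2 differences within animals from -2.60 to 4.55 (adjusted p = 0.0269). THY1, MFAP5, CD34 and PDGFRB were higher in 6 of 6. The median over the 9 markers was 2.10, against 0.16 over all genes. On a scale shared by both tissues PI16 ranged from 282 to 929 CPM in AT and from 6.21 to 97.5 CPM in SM, and for PI16, PDGFRA, PDGFRB, CD34 and THY1 the 10 AT libraries all lay above the 6 SM libraries. DPP4 ranged from 26.3 to 64.7 CPM in AT and from 8.71 to 110.7 CPM in SM, with a difference of 0.71 ± 0.55 that did not pass (adjusted p = 0.239). CD55 was lower in AT by 0.52 ± 0.21 (adjusted p = 0.0217) in 6 of 6 animals, but with library size alone its difference was 0.23 in the other direction (adjusted p = 0.413). That scaling moved the median of all genes from 0.16 to 0.90, the share of called genes higher in AT from 54.2% to 77.7%, and the 7 other called markers to between 2.75 and 4.602, and DPP4 was then called (1.47, adjusted p = 0.0339). Over 8 alternatives the adjusted p of CD55 ranged from 0.00424 to 0.413 and that of DPP4 from 0.0339 to 0.541. The DLK1 call was lost with voomWithQualityWeights, without the animal in the model, and in pre-treatment libraries of animals with both tissues (adjusted p from 0.00526 to 0.507 over 7 alternatives).

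Whether AT and SM changed differently was tested as the AT change minus the SM change. For post-treatment against pre-treatment 0 of 9 markers were called by edgeR, as by DESeq2 and voomWithQualityWeights, where 0.0487% of 12322 genes were called. At an unadjusted p under 0.05 there were 0 of 9 markers, beside 1306 of the 12322 genes. For washout against post-treatment 2 of 9 were called, where 22.7% of genes were. For PDGFRA the AT change minus the SM change was -2.91 ± 0.56 on the log2 scale (adjusted p = 0.000386), with values of -2.43 without the washout SM library of animal 22130 and -3.18 without the washout AT library of animal 26292. DLK1 differed by -2.63 ± 0.94 (adjusted p = 0.0418), a call lost without either of these libraries (adjusted p = 0.0563 and 0.0557) and under 7 of 9 alternatives in all (adjusted p from 0.0108 to 0.624). The median over the 9 markers was -0.51, against 0.03 over all genes. DPP4, whose change in AT was called, gave -0.76 ± 0.70 (adjusted p = 0.465), so that a difference between the tissues was not detectable for it.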

How the data were processed

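Stranded mRNA libraries were sequenced as paired-end reads, which the authors mapped to MacaM, a rhesus assembly, using STAR, and unnormalized counts per gene were deposited. The table held 16103 entries for 48 of 51 labelled samples, 3 SM samples were not analysed here, and 70 repeat entries of a gene were dropped. Within each tissue, genes reaching 0.5 CPM in 10% or more of its libraries entered the test of edgeR 4.0.16 (TMM, robust quasi-likelihood test, two-sided, Benjamini-Hochberg adjustment) in R 4.3.3, with time point and animal as terms and 1 fit per tissue. AT was compared with SM over genes passing in either tissue, and the difference of changes over genes passing in both, with animal within tissue. The fits were checked on simulated counts for recovery of a set change. These counts were drawn without differences between animals, so the check does not cover the pairing or the spread seen here. CPM values within a tissue use TMM of that tissue, and log2 CPM a prior count of 2.

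Animals pair the time points: after removal of time point means the median r of libraries of 1 animal was 0.384 in AT (25 pairs) and 0.290 in SM (19 pairs), against -0.03 and -0.05 for different animals. DLK1 had as few as 4 counts in AT and 3 in SM. Its log2 CPM also spread the most between AT libraries, with an SD of 2.26 pre-treatment and 2.28 at washout. What limited the precision of each marker was not tested.

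The markers, the lists of related genes and the cell type lists were chosen with earlier results of these data known, from what the genes are known for. In each related list at most 3 called genes of the largest change per comparison were named, with the PDGF and DLK1 lists whole, and for each marker the 3 genes of highest r in AT. Alternatives were DESeq2 1.42.0, voomWithQualityWeights of limma 3.58.1, library size alone, other filters, no animal, 2 time points, no fold limit, the identifier series, and omission of animals or libraries. Sequences and coordinates were not used here. The result of 1 related gene is not reported here.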

Additional observations from a re-analysis of the deposited data

Results flagged for a closer look

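Over 54 groups of libraries, 6 time points and tissues by 9 markers, 3 held 1 library farther from the rest than Dixon's 95% criterion allows, and chance alone flags about 1 in 20 groups. PDGFRB pre-treatment in SM was 85.0 CPM in animal 24849, above the other 5 libraries. CD34 post-treatment in AT was 282 CPM in animal 20275, below the other 8. PI16 at washout in SM was 132 CPM in animal 22130, above the other 6.

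For 2 markers the change from post-treatment to washout differed between AT and SM by the test of the difference itself: PDGFRA by -2.91 on the log2 scale (adjusted p = 0.000386 in edgeR's quasi-likelihood test) and DLK1 by -2.63 (adjusted p = 0.0418).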

How the results depend on the processing

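The calls of DPP4 and PDGFRA in AT, and of PDGFRA in the difference between tissues, were made under every alternative run. Of 256 values of markers called somewhere, 224 kept their direction and side of the threshold, 26 lost and 5 gained a call, and CD55 between AT and SM turned to 0.226 with library size alone. Among 951 values of markers called nowhere, 132 had the other sign.

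Post-treatment in AT, 2 markers were called with DESeq2 and from 1 to 2 with each animal or library left out. From post-treatment to washout 2 markers were called with voomWithQualityWeights, 2 with no replicate block (the animal left out of the paired model) and 2 with the identifier series added, and from 2 to 5 with an animal or library left out (5 without the washout AT library of animal 26292, 2 without animal 20275 or 21866). In the difference between tissues at washout 1 marker was called in place of 2 with voomWithQualityWeights, library size alone, no filter, at least 10 counts in every library (where DLK1 was not tested), no replicate block and the identifier series, and 1 with the washout AT library of animal 26292 or the washout SM library of animal 22130 left out. The replicate block changed no other count of markers by over 1.5 times. Related genes called post-treatment ranged from 3 to 14 with an animal left out, and from pre-treatment to washout were 20 with voomWithQualityWeights. All genes called in AT varied too, from 805 to 2607 post-treatment over all settings. From pre-treatment to washout they were 3685 with voomWithQualityWeights, in place of 2735. The causes were not tested.

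With library size alone the share of called genes that were higher rose from 49.7% to 63.0% at washout compared to post-treatment and from 61.1% to 79.7% compared to pre-treatment in AT, and from 52.3% to 75.0% in the difference between tissues at washout, where the median of all genes moved from 0.03 to 0.25 (in SM at washout against post-treatment, from -0.03 to -0.16). With the identifier series in the model, 2650 and 1355 genes were called in SM at washout against post-treatment and pre-treatment, in place of 24 and 8, with 0 markers among them. A prior count of 0.5 moved no mean log2 CPM of a marker by more than the spread between libraries. The identifier series have no given meaning, SM libraries spread widely and DLK1 had low counts. Their part in these results was not tested. The omission of the washout AT library of animal 26292 or the washout SM library of animal 22130 was chosen after the data were seen. So was the identifier series in the difference between tissues.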
